A study of Mus musculus with 12 samples.

Results

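The genes described here are the mouse DNA topoisomerases and the 2 tyrosyl-DNA phosphodiesterases that repair their adducts. They were taken by name: the rows of the count tables called Top2a, Top2b, Top1, Top1mt, Top3a, Top3b, Tdp1 and Tdp2, which are 8 of 55453 gene symbols. The naming rule itself uses no measured value. All 8 passed the filter on low counts and were among the 14757 genes tested.

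Heart RNA was sequenced in 12 libraries from 4 groups of 3 mice. Wild-type (WT) mice and PDE10A knockout (KO) mice each received either vehicle or doxorubicin (DOX). The strain was C57BL/6J in every group, per the labels, and mice of either sex were used. DOX, an anthracycline cancer drug with toxicity to heart muscle, was a single intraperitoneal injection of 15 mg/kg followed for 7 days. The treatment protocol also has all mice receive, by subcutaneous injection, either the PDE10A inhibitor TP-10 or its solvent of DMSO in β-cyclodextrin. No library used here is labelled with TP-10. PDE10A is a phosphodiesterase that breaks down cAMP and cGMP. The labels give neither the ages of the mice nor the construct behind the knockout, nor whether the deletion was limited to some cells. The comparisons asked how each gene differed with DOX within each genotype, with genotype within each treatment, and whether the DOX difference itself differed between genotypes.

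Topoisomerases cut DNA, let strands pass or turn, and reseal the cut, which relieves the tension that transcription and replication put into the double helix. While the DNA is cut, a tyrosine of the enzyme is joined to the broken end. DOX traps type II topoisomerases in that joined state, and Top2b, the form present in cells that no longer divide, has been studied as the target through which anthracyclines injure heart muscle cells. Top2a is made mainly by dividing cells.

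Libraries held 23846398 to 32921876 counted reads, of which 24.4% to 33.6% came from genes of the mitochondrial chromosome, except in WT vehicle mouse 2 at 19.5%. That library lay farthest from the others, with a median size of log2 difference over genes of up to 0.49. WT DOX mouse 21 lay nearer to WT vehicle mouse 1 (0.18) and KO DOX mouse 20 (0.18) than to WT DOX mice 22 and 24 (0.24 and 0.25). An unexplained suffix of 1 stands in the sample titles of WT vehicle mouse 1, WT DOX mice 22 and 24 and all KO DOX mice. KO vehicle mice veh_3394 and veh_3395 carry it too. The suffix is thus spread unevenly over vehicle and DOX, so it is partly mixed with treatment. Pde10a itself was read at 1.00 to 3.38 CPM, the read count scaled to the library's total after TMM adjustment, in the 6 libraries labelled WT and at 8.27 to 11.9 CPM in the 6 labelled KO, so its level was higher in the libraries labelled KO. Here WT and KO stand for those labels, and KO always means the libraries labelled KO. All 8 cardiomyocyte markers were present in every group. Endothelial markers summed to 1618 to 1669 CPM in WT vehicle hearts and to 857 to 1176 CPM in the other groups. Red blood cell markers summed to 50.9 to 172 CPM in WT vehicle hearts and to 0.144 to 0.395 CPM in WT DOX hearts. In WT DOX hearts Hba-a2, Hbb-bt and Slc4a1 were among the markers at 0. The red blood cell sum was 46.5 to 253 CPM in KO vehicle and 0.748 to 213.5 CPM in KO DOX hearts. Neutrophil markers summed to 2.00 to 3.45 CPM in WT vehicle hearts, 8.62 to 36.7 CPM in WT DOX, 6.78 to 10.4 CPM in KO vehicle and 3.98 to 5.55 CPM in KO DOX hearts. Atrial markers reached 2208 CPM in 1 KO vehicle heart and 1633 CPM in 1 KO DOX heart, against 77.8 to 229 CPM in WT hearts.

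The promoters of both type II genes are shown first because the members differ there. Each sequence, from RefSeq on GRCm38.p6, runs 5′ to 3′ in the gene's own direction from 250 bases before the start site to 50 after it. Capitals mark CCAAT boxes (CCAAT or, on the other strand, ATTGG) and, in the Top2a promoter, the cell cycle homology region motif (TTTGAA or TTCAAA), both of which are known from genes switched on in dividing cells. The Top2a window is chr11:99024140-99024439 on the reverse strand and that of Top2b is chr14:16364956-16365255 on the forward strand.
Top2a promoter: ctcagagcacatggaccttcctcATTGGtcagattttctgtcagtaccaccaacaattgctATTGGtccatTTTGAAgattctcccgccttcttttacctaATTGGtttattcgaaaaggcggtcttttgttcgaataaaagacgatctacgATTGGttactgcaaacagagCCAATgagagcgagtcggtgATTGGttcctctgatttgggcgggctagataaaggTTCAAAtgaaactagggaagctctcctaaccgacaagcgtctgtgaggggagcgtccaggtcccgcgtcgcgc
Top2b promoter: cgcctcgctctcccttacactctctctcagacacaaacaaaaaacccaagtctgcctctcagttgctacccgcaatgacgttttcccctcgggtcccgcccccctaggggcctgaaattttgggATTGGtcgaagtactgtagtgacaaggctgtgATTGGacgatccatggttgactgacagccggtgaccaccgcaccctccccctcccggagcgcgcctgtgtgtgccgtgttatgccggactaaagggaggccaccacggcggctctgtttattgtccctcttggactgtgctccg
The Top2a window held 6 CCAAT boxes, whose first bases lay 227, 189, 149, 98, 78 and 58 bases before the start site. Of 32851 mouse promoters of the same length, 26 (0.0791%) held 6 or more, and 37.4% held at least 1. Its TTTGAA or TTCAAA matches began 179 and 23 bases before the start site, and 2.31% of promoters held at least 2 of them. The Top2b window held 2 CCAAT boxes, 126 and 94 bases before the start site, as 11.7% of promoters held 2 or more, and no TTTGAA or TTCAAA. Also searched, on both strands, were TTTAAA, which is its own reverse complement, and the E2F core TTCCCGCC (GGCGGGAA on the other strand). Neither stood in the Top2a or the Top2b window. A match says only that the letters are there.

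The other promoters in the RefSeq table held fewer matches. Top1 had 1 TTTAAA at 218 bases before the start site, Top3b 1 CCAAT box at 243, and Tdp1 1 TTTGAA at 39. Promoters of Top1mt, Top3a and Tdp2 were not analysed here. Of a list of 31 cell division genes, 25 had a promoter in the table, and 22 of those (88%) held a CCAAT box, against 41.1% of 27025 genes. At least 2 CCAAT boxes stood in 13 (52%) of them, against 13.3% of all genes.

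Per kilobase of exon, Top1 was the highest of the 8 genes. Its mean over all 12 libraries was 5.13 CPM per kb (3.73 to 6.27), followed by Tdp2 at 4.61 (4.13 to 5.76) and Top2b at 4.34 (3.67 to 4.89). These ranges overlap, so the order among those 3 lies within the spread between libraries. Top1mt at 2.74 and Top3b at 2.69 CPM per kb came next and also overlapped each other. Top3a at 1.07 (0.863 to 1.36) lay above Tdp1 at 0.752 (0.538 to 0.842) in every library. Top2a was lowest at 0.0991 CPM per kb (0.0192 to 0.314), a level above that of 3.51% of the tested genes. Its highest library was 16.4 times its lowest, whereas that ratio was between 1.16 and 1.68 for each of the other 7 genes. As the plot of all members by library shows, Top2a was thus both the scarcest and the most variable of the 8. Exon length here counts every annotated exon base of a gene once: 14613 for Top2b, 10426 for Top1 and 3286 for Tdp2. The order per kilobase depends on that length. In plain CPM, Top2b had the highest mean at 63.44, with Top1 at 53.45 and Tdp2 at 15.14.

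**Figure D1:**
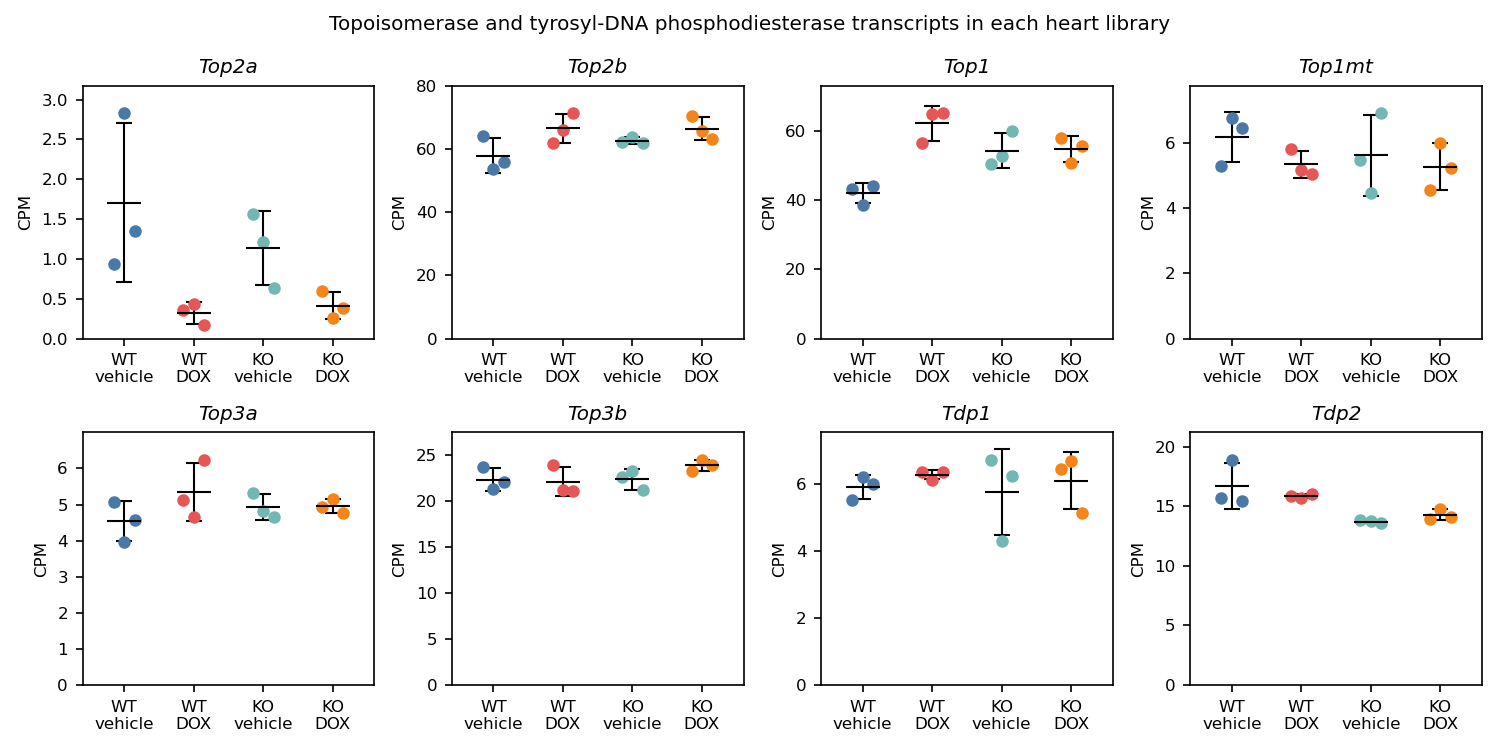
CPM of each topoisomerase and tyrosyl-DNA phosphodiesterase gene (vertical axes, linear from 0) in each of the 12 libraries, by group. Points are single mice, long bars group means and whiskers 1 SD (n = 3). Top2a points of both DOX groups lie below 0.6 CPM and below every vehicle point, and the 3 WT vehicle points of Top1 lie below the other 9.

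Top2a (chr11:98992943-99024189, reverse strand, GENCODE M21 on GRCm38) encodes the type II topoisomerase that untangles sister chromosomes before cell division. It was read at 0.934, 2.83 and 1.35 CPM in WT vehicle mice 1, 2 and 3, from 21, 82 and 34 reads. WT DOX mice 21, 22 and 24 had 0.359, 0.437 and 0.173 CPM, from 10, 12 and 6 reads. KO vehicle mice veh_3393, veh_3394 and veh_3395 had 1.56, 1.21 and 0.640 CPM, and KO DOX mice 18, 19 and 20 had 0.591, 0.256 and 0.385 CPM. All 6 DOX libraries were below all 6 vehicle libraries, a pattern found in 173 of the 14757 tested genes (1.17%). DOX libraries lay below vehicle libraries both within WT and within KO for 2.45% of genes. These are few reads: 6 to 15 in each DOX library and 15 to 82 in each vehicle library.

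In WT hearts, Top2a fell from 1.70 ± 0.997 to 0.323 ± 0.136 CPM (SD, n = 3 each). The fitted difference was -2.42 on the log2 scale (SE 0.51, 95% interval -3.54 to -1.31), 5.37-fold lower, with an adjusted p of 0.0165 by edgeR's quasi-likelihood test with Benjamini-Hochberg adjustment. In that comparison 18.6% of all tested genes passed the threshold of 0.05, 9.39% as higher and 9.2% as lower with DOX. Of the 8 genes, 2 passed: Top2a lower and Top1 higher. The Top2a call was lost when vehicle mouse 2 was left out (-1.84, adjusted p = 0.0589), or DOX mouse 22 (-2.70, adjusted p = 0.0569) or 24 (-2.10, adjusted p = 0.0669), and in a fit of WT libraries alone (-2.43, 0.0788). In those fits 513, 185, 183 and 20 of all genes passed, in that order, against 2743 in the main fit. The red blood cell markers were near 0 and the neutrophil markers highest in the same WT DOX libraries. In KO DOX hearts the red blood cell markers summed to 0.748 to 213.5 CPM. The part of blood cells or of any other cell type in the Top2a difference was not tested. In bulk heart RNA, fewer cells of a type and less RNA per cell cannot be told apart.

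In KO hearts, Top2a was 1.14 ± 0.463 CPM with vehicle and 0.411 ± 0.169 CPM with DOX. The fitted difference was -1.47 (SE 0.51, 95% interval -2.59 to -0.35), with an unadjusted p of 0.0141 and an adjusted p of 0.697. Only 0.0136% of genes, 2 in all, passed in that comparison, and 0 of the 8 genes did. By DESeq2 or limma-voom 0 of the 8 passed, and 1 (Top2a) had an unadjusted p under 0.05, as had 5.35% of all genes. The DOX differences in the 2 genotypes did not differ detectably (interaction 0.95, SE 0.73, 95% interval -0.64 to 2.55, adjusted p = 0.518). Averaged over genotypes, Top2a fell by 1.95 (SE 0.36, adjusted p = 0.0264), in a comparison where 5.17% of genes passed, 2.58% as higher and 2.6% as lower. That call was lost in 7 of the 12 fits that left out 1 library (WT vehicle 3, WT DOX 22 or 24, KO DOX 19 or 20, veh_3393 or veh_3394), with an adjusted p of up to 0.0764, and with the suffix in the sample titles as a covariate (-1.63, adjusted p = 0.0801). In those 7 fits 27 to 72 of all genes passed, and 37 with that covariate, against 763 in the main fit. Genotype made no detectable difference to Top2a: KO against WT was -0.59 under vehicle (adjusted p = 0.435) and 0.36 under DOX (adjusted p = 0.81). Without WT vehicle mouse 2, the library with the most Top2a reads, the vehicle value was -0.01.

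Top2b (chr14:16365179-16435462, forward strand) encodes the type II enzyme that is also present in cells that have left the cell cycle. WT vehicle mice 1, 2 and 3 had 64.2, 53.7 and 55.9 CPM, and WT DOX mice 21, 22 and 24 had 62.1, 66.2 and 71.4 CPM. KO vehicle hearts had 62.3, 63.8 and 62.1 CPM and KO DOX hearts 70.4, 65.9 and 63.3 CPM. In WT the groups overlapped through vehicle mouse 1 and DOX mouse 21. Top2b was 57.9 ± 5.55 and 66.6 ± 4.69 CPM in WT without and with DOX, and 62.7 ± 0.968 and 66.5 ± 3.62 CPM in KO.

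The DOX difference of Top2b was 0.20 in WT (SE 0.09, 95% interval 0.00 to 0.40, unadjusted p = 0.0499, adjusted p = 0.138). It was 0.08 in KO (SE 0.09, 95% interval -0.12 to 0.29). Averaged over genotypes it was 0.14 (SE 0.07, unadjusted p = 0.0489, adjusted p = 0.173), and it passed there by limma-voom only (0.15, adjusted p = 0.0385). In that averaged comparison 28.54% of all genes had an unadjusted p under 0.05, and 4102 passed by limma-voom. The WT value passed by limma-voom (0.24, adjusted p = 0.0213) and without WT vehicle mouse 1 (0.28, adjusted p = 0.036), and over 20 alternatives its adjusted p was 0.0213 to 0.433. Limma-voom passed 5456 of 14757 genes for DOX in WT, and the fit without WT vehicle mouse 1 passed 4188 of 15091. KO against WT for Top2b was 0.12 under vehicle and 0.00 under DOX, with intervals from -0.09 to 0.32 and from -0.20 to 0.20. On the opposite strand, Rarb shares 12.3% of the exon bases of Top2b. Rarb was at 12.9 ± 0.639, 15.5 ± 0.689, 13.8 ± 0.571 and 16.5 ± 3.26 CPM in WT vehicle, WT DOX, KO vehicle and KO DOX. The kit marked strand, but the strand setting of the counting is not given in the sources used here.

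The share of Top2a among type II topoisomerase reads was lower with DOX. Per kilobase of exon, Top2a made up 2.31%, 7.88% and 3.76% of Top2a plus Top2b in WT vehicle mice 1, 2 and 3. Its share was 0.930%, 1.06% and 0.390% in WT DOX mice 21, 22 and 24. KO vehicle mice veh_3393, veh_3394 and veh_3395 had 3.90%, 2.97% and 1.64%, and KO DOX mice 18, 19 and 20 had 1.34%, 0.626% and 0.977%. Group means were 4.65 ± 2.89% and 0.793 ± 0.354% in WT, and 2.84 ± 1.13% and 0.981 ± 0.358% in KO (SD, n = 3 each). Over both genotypes the DOX share was lower by 2.86 percentage points (a difference of -2.86), with a two-sided exact permutation p of 0.005, the smallest that 400 arrangements within genotypes can give. Within 1 genotype, 3 mice against 3 cannot go below 0.1. This share reads the same Top2a counts as the tests above. More than 9 in 10 type II reads per kb were Top2b in each library.

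**Figure D2:**
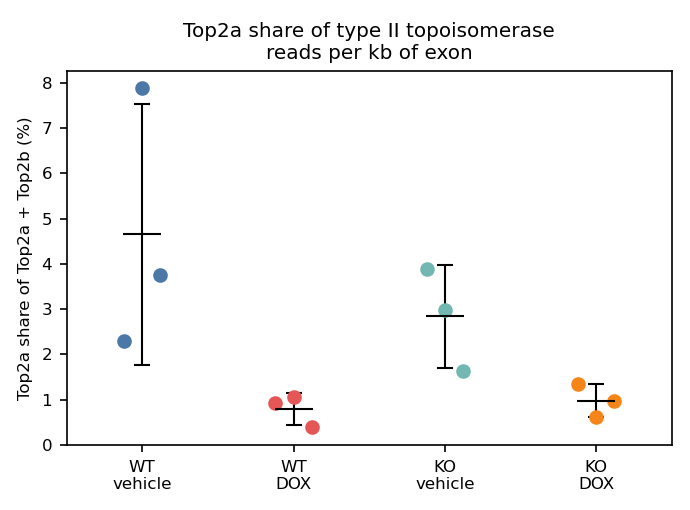
Top2a reads as a percentage of Top2a plus Top2b reads, both per kilobase of exon (vertical axis, linear from 0), in each group. Points are single mice, long bars means and whiskers 1 SD (n = 3); vehicle points lie between 1.64% and 7.88% and DOX points between 0.390% and 1.34%.

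Top1 (chr2:160645888-160722764, forward strand) encodes the nuclear type IB enzyme that removes supercoils around transcribed genes. WT vehicle mice 1, 2 and 3 had 43.2, 38.8 and 44.3 CPM, and WT DOX mice 21, 22 and 24 had 56.5, 65.1 and 65.3 CPM. KO vehicle mice veh_3393, veh_3394 and veh_3395 had 50.5, 52.8 and 60.1 CPM, and KO DOX mice 18, 19 and 20 had 58.2, 50.9 and 55.7 CPM. The 3 WT vehicle libraries were below the other 9, as was so for 6.49% of genes, and both KO groups overlapped.

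Top1 rose with DOX in WT hearts, from 42.1 ± 2.89 to 62.3 ± 5.02 CPM, by 0.57 on the log2 scale (SE 0.10, 95% interval 0.35 to 0.78, adjusted p = 0.0107), or 1.48-fold. It stayed past the threshold in each of the 12 fits that left out 1 library, with differences of 0.51 to 0.63. The call was lost in the fit of WT libraries alone (0.56, adjusted p = 0.0797), where 20 of 14207 genes passed. In KO hearts Top1 was 54.4 ± 5.01 CPM with vehicle and 54.9 ± 3.69 CPM with DOX, a difference of 0.01 (SE 0.10, 95% interval -0.20 to 0.23, adjusted p = 0.997).

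The difference between those 2 DOX effects was -0.55 (SE 0.14, 95% interval -0.86 to -0.24), with an unadjusted p of 0.00202 and an adjusted p of 0.131, in a comparison where 0.21% of genes passed. It passed by DESeq2 (-0.55, adjusted p = 0.0271), by limma-voom (-0.52, adjusted p = 0.0199) and without WT DOX mouse 21 (-0.62, adjusted p = 0.0379). Of 14757 genes, 366 passed in it by DESeq2 and 1882 by limma-voom, and 515 of 15033 without WT DOX mouse 21. Of the 8 genes, 0 passed the interaction test in edgeR's quasi-likelihood fit. Among them 1 (Top1) had an unadjusted p under 0.05, as had 16.03% of all genes. Averaged over genotypes, Top1 rose by 0.29 (SE 0.07, adjusted p = 0.0431), a call that held in 2 of the 12 fits that left out 1 library, those without vehicle mouse 1 or DOX mouse 21 of the WT groups. In those 2 fits 2707 and 2366 of all genes passed, against 763 in the main fit.

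Under vehicle, Top1 was 0.37 higher in KO than in WT (SE 0.10, 95% interval 0.15 to 0.59), with an unadjusted p of 0.00302 and an adjusted p of 0.0605. KO vehicle libraries lay above all WT vehicle libraries for Top1, as for 16.5% of genes. That comparison uses the same WT vehicle libraries as DOX in WT, and 2.88% of genes passed in it. Of the 8 genes, 0 passed in it, with 2 (Top1 and Tdp2) at an unadjusted p under 0.05, as had 26.05% of all genes. Top1 passed in it by DESeq2 (0.36, adjusted p = 0.0194), by limma-voom (0.31, adjusted p = 0.00549), without WT vehicle mouse 1 (0.39, adjusted p = 0.0359) and without WT DOX mouse 21 (0.37, adjusted p = 0.0473). Of 14757 genes, 1639 passed in it by DESeq2 and 5024 by limma-voom. Under DOX, KO against WT for Top1 was -0.18 (95% interval -0.40 to 0.03, adjusted p = 0.406), where 0.42% of genes passed. In that comparison 0 of the 8 genes passed, 0 had an unadjusted p under 0.05, and 0 passed by DESeq2 or limma-voom. An unadjusted p under 0.05 was found there for 15.48% of all genes. The endothelial markers were highest in the same WT vehicle libraries in which Top1 was lowest, and their part in the Top1 differences was not tested.

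**Figure D3:**
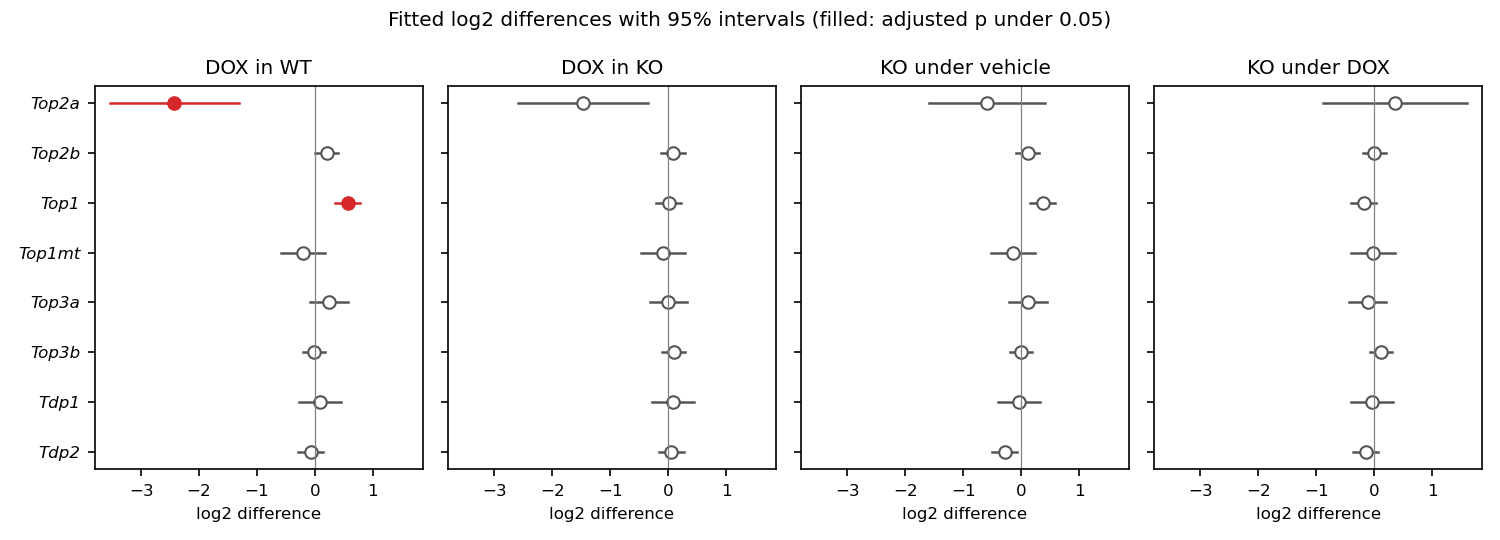
Fitted log2 differences (horizontal axes) of the 8 genes with 95% intervals in 4 comparisons: DOX against vehicle in WT and in KO, and KO against WT under vehicle and under DOX. Filled red points passed an adjusted p of 0.05; these are Top2a (-2.42) and Top1 (0.57) in WT, and all other points are open.

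Top1mt (chr15:75657035-75678800, reverse strand) encodes the type IB enzyme of mitochondria. It was 6.18 ± 0.777 CPM in WT vehicle, 5.34 ± 0.420 in WT DOX, 5.61 ± 1.24 in KO vehicle and 5.27 ± 0.716 in KO DOX hearts, and the groups overlapped in every comparison. The DOX difference was -0.21 in WT (95% interval -0.59 to 0.17) and -0.09 in KO (95% interval -0.47 to 0.30). An antisense gene, Gm15945, shares 4.65% of its exon bases, and had at most 0.0337 CPM as a group mean.

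The type IA enzymes, which pass single strands and untangle recombining DNA or RNA, did not differ detectably. Top3a (chr11:60740058-60777365, reverse strand) serves the nucleus and mitochondria and had 4.53 ± 0.552, 5.35 ± 0.814, 4.93 ± 0.347 and 4.95 ± 0.192 CPM in WT vehicle, WT DOX, KO vehicle and KO DOX hearts. Its DOX difference was 0.24 in WT (95% interval -0.08 to 0.57) and 0.01 in KO (95% interval -0.32 to 0.33). Top3b (chr16:16870736-16892990, forward strand), which also acts on RNA, was the steadiest of the 8, between 21.1 and 24.5 CPM in every library. Its DOX difference was -0.01 in WT (95% interval -0.21 to 0.18) and 0.10 in KO (95% interval -0.10 to 0.29), so these data leave room for changes of that size.

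Of the repair enzymes, Tdp1 (chr12:99884517-99955219, forward strand) removes the remains of type I enzymes from broken DNA ends. Tdp1 had 5.91 ± 0.355 CPM in WT vehicle, 6.28 ± 0.142 in WT DOX, 5.75 ± 1.28 in KO vehicle and 6.09 ± 0.847 in KO DOX hearts. Its DOX difference was 0.09 in WT (95% interval -0.28 to 0.45) and 0.08 in KO (95% interval -0.28 to 0.45).

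Tdp2 (chr13:24831679-24842153, forward strand) removes the remains of type II enzymes, the adducts that DOX can leave. WT vehicle mice 1, 2 and 3 had 15.7, 18.9 and 15.5 CPM, and WT DOX mice 21, 22 and 24 had 15.9, 15.7 and 16 CPM. KO vehicle mice veh_3393, veh_3394 and veh_3395 had 13.8, 13.8 and 13.6 CPM, and KO DOX mice 18, 19 and 20 had 14.0, 14.8 and 14.1 CPM. All 6 KO libraries were below all 6 WT libraries, as was so for 223 genes (1.51%). Of the KO libraries, those with DOX lay above those with vehicle, as for 8.27% of genes. The DOX difference was -0.08 in WT (95% interval -0.29 to 0.14) and 0.06 in KO (95% interval -0.15 to 0.27, adjusted p = 0.997).

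KO against WT for Tdp2 was -0.28 under vehicle (SE 0.10, 95% interval -0.50 to -0.07, unadjusted p = 0.0129, adjusted p = 0.0998). Under DOX it was -0.15 (SE 0.10, 95% interval -0.36 to 0.06, adjusted p = 0.491). Averaged over treatments, a comparison added after the values of Tdp2 were seen, it was -0.22 (SE 0.07, 95% interval -0.37 to -0.07, adjusted p = 0.086), 1.16-fold lower and short of the threshold that 4.59% of genes passed. Of the 8 genes, 0 passed in that averaged comparison, with 1 (Tdp2) at an unadjusted p under 0.05, as had 24.48% of all genes. Tdp2 passed in it by DESeq2 and by limma-voom and without WT vehicle mouse 1, and its adjusted p ranged from 0.0351 to 0.286 over 19 alternatives. Of 14757 genes, 1508 passed in it by DESeq2 and 3225 by limma-voom, and 1976 of 15091 without WT vehicle mouse 1. Under vehicle, Tdp2 passed by limma-voom only (-0.19, adjusted p = 0.0363), where 5024 genes passed.

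The genes that surround these enzymes were read from 5 lists, and each is given here by its counts beside the median of all genes, which was 0.00 for DOX in WT and 0.01 for DOX in KO. The lists were chosen with earlier results of these data known. Over all tested genes 9.39% rose and 9.2% fell with DOX in WT. In the fit of WT libraries alone, 0 genes of each of the 5 lists passed for DOX in WT, where 20 of 14207 genes did. In the interaction test 0 genes of each list passed, where 0.21% of all genes passed. By limma-voom up to 5 genes of a list passed that test, where 1882 of 14757 genes did. Of 27 tested cell division genes, 8 fell and 0 rose with DOX in WT, against 9.2% of all genes that fell (median -0.65, 25 of 27 negative). The proliferation marker Mki67 was at 2.00, 4.42 and 2.498 CPM in WT vehicle mice 1, 2 and 3 and at 0.359, 0.619 and 0.518 CPM in WT DOX mice 21, 22 and 24. It fell by 2.57 (SE 0.38, adjusted p = 0.00887) and kept its call in each of the 12 fits without 1 library, but not in the fit of WT libraries alone (-2.57, adjusted p = 0.0505). Cdk1, the kinase that starts mitosis, fell (-2.31, adjusted p = 0.021), as did cyclin gene Ccna2 (-1.89, adjusted p = 0.0224) and Prc1, which bundles spindle microtubules (-1.97, adjusted p = 0.0243). They rest on few reads. Cdk1 had 10, 48 and 13 reads in WT vehicle mice 1, 2 and 3 and 3, 4 and 9 in WT DOX mice 21, 22 and 24. Ccna2 had 6 to 11 reads and Prc1 2 to 11 in WT DOX libraries. A gene can pass the filter on low counts through the 3 libraries of 1 group. The calls of Cdk1, Ccna2 and Prc1 were lost without vehicle mouse 2, DOX mouse 22 or DOX mouse 24 of the WT groups, with adjusted p-values up to 0.11. Without any 1 of those mice the count of 8 was 1. Over all genes 513, 185 and 183 passed without those mice, in that order, against 2743 in the main fit. The count of 8 was 4 without WT vehicle mouse 3, veh_3393 or veh_3395, where 742, 1957 and 1939 of all genes passed. It was 5 without KO DOX mouse 19, where 2237 passed. With the title suffix as covariate, where 1595 of all genes passed, the count was 2, and Cdk1 (adjusted p = 0.0502) and Prc1 (0.0521) were lost. With a filter of 1 CPM in 3 libraries the count was 3, where 2791 of 13001 genes passed.

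With DOX in KO, where 0.0136% of all genes passed, 0 of the 27 cell division genes did. At an unadjusted p under 0.05 it was 1, against 5.35% of all genes, and by DESeq2 or limma-voom 0. The median of the 27 was -0.18 and 24 of 27 were negative. For KO against WT under vehicle their median was -0.44, with 22 of 27 negative and 0 called, where 2.88% of all genes passed. Their interaction median was 0.41, with 0 called. Across the 12 libraries, log2 CPM of Top2a and of these genes had a median Pearson r of 0.59 (-0.56 to 0.92), against 0.02 for all genes, and the highest was with Mki67 (0.92). These libraries share the groups, so the values describe these hearts and no more. As the heat map of these genes shows, Top2a and Mki67 shared the high value of WT vehicle mouse 2.

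**Figure D4:**
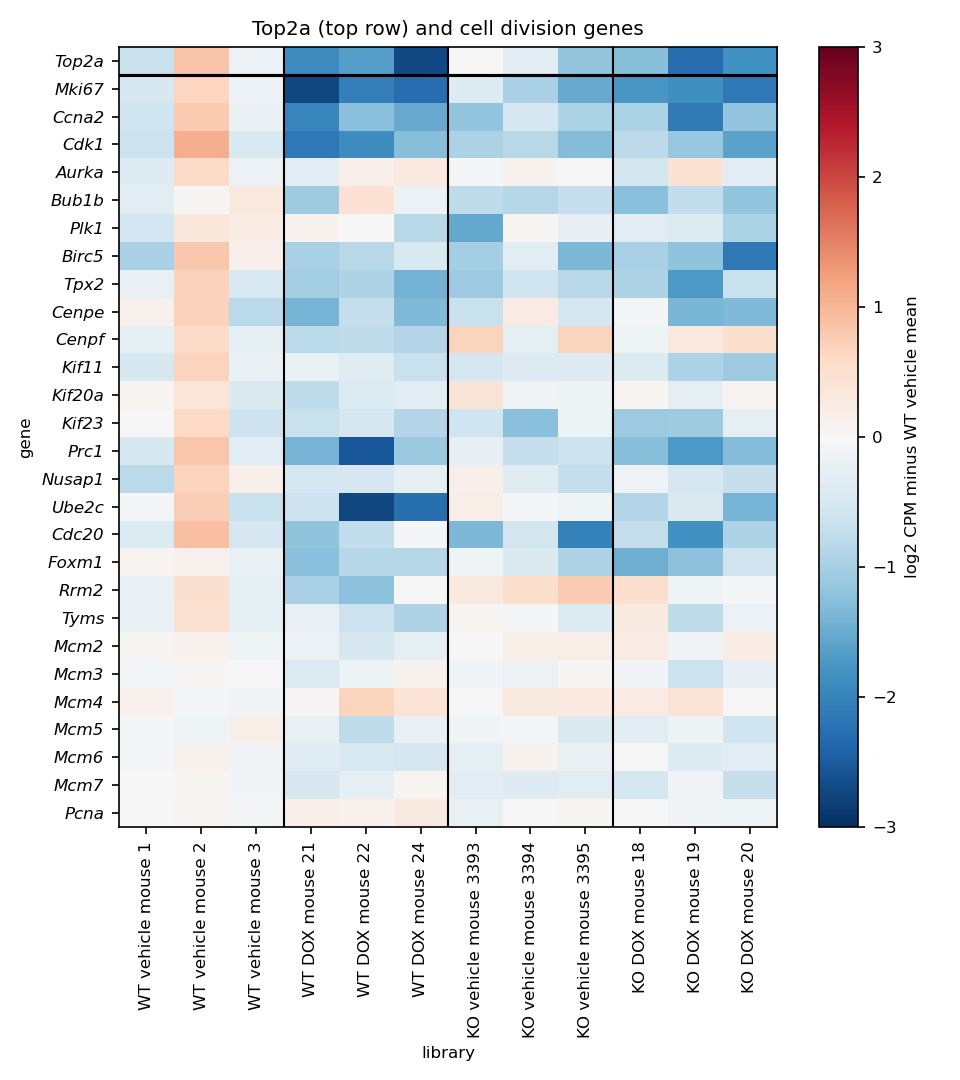
Log2 CPM of Top2a and of 27 cell division genes (rows) in each of the 12 libraries (columns), less the mean of the 3 WT vehicle libraries. Blue is lower and red higher; WT vehicle mouse 2 has the highest Top2a, Mki67, Ccna2 and Cdk1, and the DOX columns of Top2a and Mki67 are blue.

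Among 26 other repair genes for topoisomerase adducts and the breaks behind them, 7 rose and 0 fell with DOX in WT, against 9.39% of all genes that rose (median 0.15). Prkdc, the DNA-dependent protein kinase of end joining, rose from 8.47 ± 0.652 to 13.7 ± 1.99 CPM (0.69, adjusted p = 0.0102), and kept its call without any 1 library, but not in the fit of WT libraries alone (0.69, adjusted p = 0.081). Rad54l2, which acts on topoisomerase adducts, rose by 0.66 (adjusted p = 0.0215), Mre11a, a nuclease that can cut such adducts off, by 0.39 (0.0236) and Atm, the kinase that responds to breaks, by 1.00 (0.0396). The first 2 of these 3 were lost without any 1 of 4 WT mice, vehicle mice 2 and 3 and DOX mice 22 and 24 (adjusted p up to 0.081), and Atm in 9 of the 12 fits without 1 library. The count of 7 was 1 without any 1 of those 4 mice. In those fits 183 to 742 of all genes passed, against 2743 in the main fit. The count of 7 was 3 without KO DOX mouse 19 or 20 or any 1 KO vehicle mouse, where 1939 to 2237 genes passed. It was 4 without KO DOX mouse 18 (2545 genes), 4 with the title suffix as covariate (1595) and 3 with no filter on low counts (3481 of 29571). By limma-voom it was 11, where 5456 of 14757 genes passed. With DOX in KO, where 0.0136% of all genes passed, 0 of 26 did (median 0.02). At an unadjusted p under 0.05 it was 1, against 5.35% of all genes, and by DESeq2 or limma-voom 0. Under vehicle, Parp1, the sensor of strand breaks, was higher in KO than in WT (58.2 ± 5.90 CPM in KO, 44.5 ± 3.63 CPM in WT, a difference of 0.39, adjusted p = 0.0495). It was called in 2 of the 12 fits without 1 library (in 6 of 20 alternatives). Parp1 was the 1 of 26 that passed there, where 2.88% of all genes passed. Averaged over treatments, Parp1 (0.29, adjusted p = 0.0344) and Mre11a (0.30, 0.0321) were higher in KO and Ercc1, part of a repair nuclease, was lower (-0.43, 0.0268). Each of these 3 calls was lost in at least 7 of the 12 fits without 1 library. In that averaged comparison 2 of 26 were called higher and 1 lower, where 4.59% of all genes passed.

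Of 18 partners and regulators of topoisomerases, 3 rose and 0 fell with DOX in WT (median 0.22), a count close to the background of 18.6% called, 9.39% as higher. Among them were Pias1, a SUMO ligase (0.39, adjusted p = 0.0433), and Rnf4, a ubiquitin ligase that reads SUMO chains (0.38, adjusted p = 0.0212). The count of 3 was 0 when DOX mouse 22 or 24 or vehicle mouse 3 of the WT groups was left out. It was 1 without WT vehicle mouse 2, 8 without WT DOX mouse 21 and 9 without WT vehicle mouse 1. In those fits 185, 183, 742, 513, 3851 and 4188 of all genes passed, in that order, against 2743 in the main fit. Of 17 tested cohesin, condensin and CTCF genes, which share chromosome loops with Top2b, 1 rose with DOX in WT, no more than the 9.39% of all genes: Wapl, which releases cohesin from DNA (0.34, adjusted p = 0.0335), a call lost in 8 of the 12 fits without 1 library. Of 18 genes of mitochondrial DNA upkeep, the setting of Top1mt, 1 fell with DOX in WT, no more than the 9.2% of all genes: Endog, a mitochondrial nuclease, from 48.0 ± 15.8 to 26.4 ± 3.09 CPM (-0.86, adjusted p = 0.0165), a call lost without WT DOX mouse 22 or 24. In KO hearts 0 genes of these 3 lists passed with DOX, none at an unadjusted p under 0.05 and none by DESeq2 or limma-voom. Of all genes, 0.0136% passed there and 5.35% had an unadjusted p under 0.05.

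**Figure D5:**
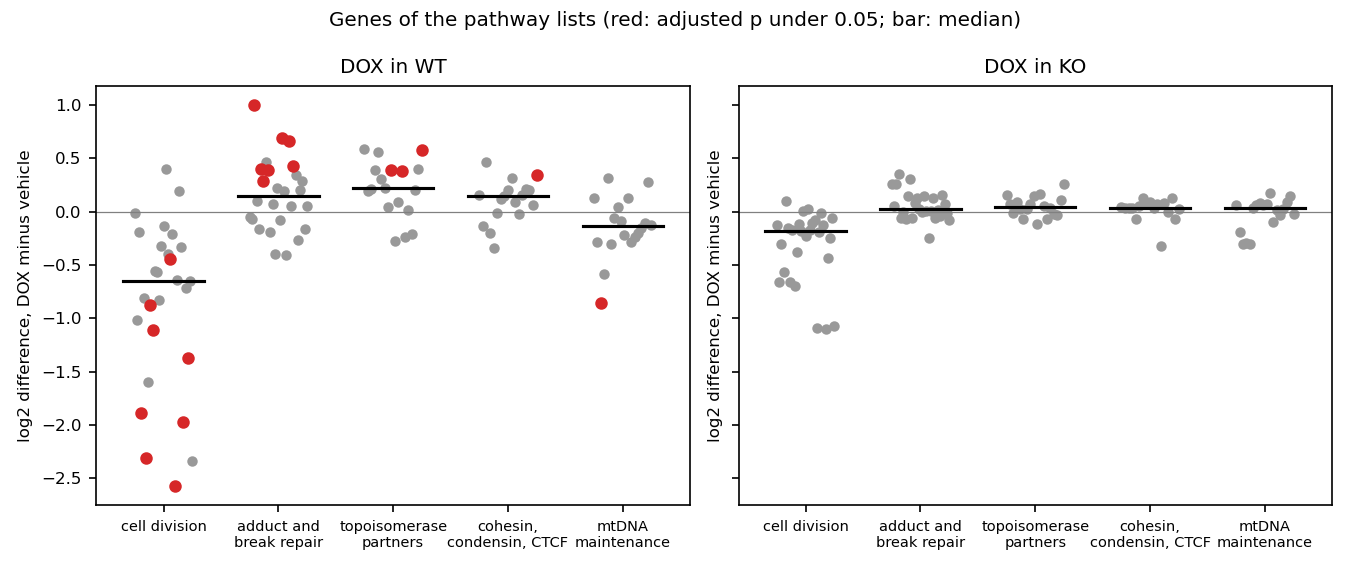
Log2 differences between DOX and vehicle (vertical axes) of each tested gene in 5 lists, in WT (left) and KO (right). Red points passed an adjusted p of 0.05 and black bars are medians. Red points occur in WT and in none of the KO lists. Of all genes, 0.0136% passed with DOX in KO. The cell division median is -0.65 in WT and -0.18 in KO. In the interaction test 0 genes of each list passed.

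The genes whose levels ran most like those of Top2a over the 12 libraries, by Pearson r of log2 CPM, were Slc39a1 (0.97), Csf2ra (0.95), Rcc2 (0.95), Ppic (0.94) and Sparc (0.93). For Top2b they were Usp53 (0.96), Prkci (0.96), Fam76b (0.96), Armcx5 (0.95) and Zc3h13 (0.94). The nearest to Top1 was Prps1l3 (0.95), to Tdp2 Tbcb (0.95), to Top3a Hps3 (0.93), to Top3b Ttpa (0.93), to Tdp1 Tti2 (0.88) and to Top1mt Sdhc (0.86), a gene of mitochondrial complex II. Among the 8 genes themselves, r ran from -0.76 (Top2a with Top1) to 0.76 (Top2b with Top1).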

How the data were processed

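Heart RNA from 12 mice was sequenced as poly(A) libraries. The authors deposited 1 table per library with raw counts by gene symbol, all of them whole numbers. Per the submitters' processing notes, the tools were fastp 0.20.0, Subread 1.6.4 (with featureCounts) and STAR 2.7.0f. Build, annotation and strand use were not given in the sources used here. Positions and exon lengths came from GENCODE M21 on GRCm38, matched by symbol (54586 of 55453 symbols, 8 of 8 members).

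Counts were tested as deposited in R 4.3.3 with edgeR 4.0.16: filterByExpr by group (minimum count 10), TMM scaling, 1 mean per group over all 12 libraries, and quasi-likelihood tests, Benjamini-Hochberg adjusted over 14757 genes, at 0.05. The F statistic and the fold change gave each standard error. CPM used TMM-scaled library sizes, and correlations used log2 CPM with a prior count of 2. The biological coefficient of variation was 17.5%. Each library is a separate mouse, and mouse numbers differ between groups. The edgeR test of DOX in WT was run on simulated counts, and the other steps were not. Alternatives included DESeq2 1.42.0 and limma-voom (limma 3.58.1). Limma-voom was run throughout with a quality weight estimated for each library, so it is not the unweighted form.

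The members, lists and tests were chosen with earlier results of these data known. Named genes were all 8 members, the 5 nearest in pattern to Top2a and Top2b and up to 3 to each other member, and up to 4 called genes with the smallest p per list and comparison. Clone-type names were left out of the neighbours. Some genes the rule names are not reported here.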

Additional observations from a re-analysis of the deposited data

How the results depend on the processing

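Over 20 other settings, 1096 values of the 8 genes were recomputed. Of those, 0 past the threshold in either fit changed sign, and 75 uncalled ones did, the largest at 0.18 on the log2 scale. For DOX in WT, 2 genes passed, against 0 in a fit of WT libraries alone, 3 by limma-voom and 1 to 3 without 1 library. For DOX in KO, 0 passed, against 1 with no filter on low counts (Top2a, -1.475, adjusted p = 0.0336, over 29571 genes, of which 309 passed). For KO under vehicle, 0 passed, against 1 by DESeq2, 2 by limma-voom and 0 to 1 without 1 library. Of all 14757 genes, 425 passed there, against 1639 by DESeq2 and 5024 by limma-voom. For the interaction, 0 passed, against 1 by DESeq2, 1 by limma-voom and 0 to 1 without 1 library. Of all genes, 31 passed there, against 366 by DESeq2 and 1882 by limma-voom. For DOX averaged over genotypes, 2 passed, against 0 with the suffix in the sample titles as covariate, 3 by limma-voom and 0 to 2 without 1 library. Of all genes, 763 passed there, against 37 with that covariate and 4102 by limma-voom. For KO averaged over treatments, 0 passed, against 1 by DESeq2, 1 by limma-voom and 0 to 1 without 1 library. Of all genes, 677 passed there, against 1508 by DESeq2 and 3225 by limma-voom. Fits of single pairs of groups, or with 1 library fewer, have fewer samples; the cause of the other changes was not tested. Over all genes, 2743 passed for DOX in WT, against 20 in the fit of WT libraries alone, 183 without WT DOX mouse 24 and 5456 by limma-voom. With the title suffix as covariate it was 1595. With library totals in place of TMM, 1845 were higher and 941 lower in WT, against 1386 and 1357, and the median of all genes moved to 0.05. No paired analysis was possible because mouse numbers differ between groups. Top2a, with 6 to 82 reads per library, is the gene most limited by depth.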
